A study of Sisymbrium orientale with 12 samples.

Results

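The genes described here are the leaf homologues of 10 Arabidopsis loci of the salicylic acid and EDS1 branches of plant immunity: PR1 (AT2G14610), PR2 (AT3G57260), PR5 (AT1G75040), the EDS1 loci AT3G48090 and AT3G48080 (EDS1B), PAD4 (AT3G52430), SAG101 (AT5G14930), NPR1 (AT1G64280), ICS1 (AT1G74710) and EDS5 (AT4G39030). Members were the assembled transcripts, called contigs, whose closest Arabidopsis locus in the deposited annotation is on that list. The table of values held 21 such contigs of 33277, 9 of them from the R assembly and 12 from the S assembly, and they fell on 8 of the 10 loci among 16386 loci in all. For PR5 and AT3G48090 no contig was analysed here. A further 6 annotated contigs, 5 of SAG101 and 1 of EDS5, had no values in the table. The deposited annotation pairs contigs with Arabidopsis loci, so names and roles below are those of the Arabidopsis genes, and no sequence or position in the genome of this species was used.

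The plant is Sisymbrium orientale, a weed of the mustard family, and the study set lines resistant to 2,4-D, a synthetic auxin herbicide, against susceptible ones. The sampled tissue was a young expanded leaf, the plants had no treatment and grew in a growth chamber, so no library had met the herbicide or, as far as the labels say, a pathogen. Cross B, at generation F3, gave the resistant lines RP6 and RP8 (2 libraries) and, as its 4 susceptible libraries, SP3, SP7, SP9 and SRP1. Cross A, at generation F4, gave the resistant lines R202, R206 and R221 (3 libraries) and, as its 3 susceptible libraries, S205, S207 and S242. Each line is 1 library, and cross and generation cannot be told apart. The number of plants per line is not among the labels, and the p-values therefore speak only of the spread from library to library.

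In Arabidopsis, most of the salicylic acid made in defence comes from the chloroplast, where ICS1 forms isochorismate and EDS5 exports it for the last steps in the cytosol. EDS1 pairs with either PAD4 or SAG101, and these pairs relay signals from a class of intracellular immune receptors. The pair with PAD4 promotes salicylic acid accumulation. NPR1 binds salicylic acid and, with TGA transcription factors, switches on output genes such as PR1, PR2 and PR5, whose products are secreted during defence. PR1 and PR2 are therefore widely used as readouts of the pathway, and they are low in unchallenged leaves of many plants.

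Values are CPM, read counts scaled by library size with the authors' own factor, and a locus sum adds the contigs of a locus. Libraries held 100976475 to 145936928 reads, and 3 reads corresponded to 0.0196 to 0.0299 CPM. Of the mesophyll markers, 6 of 8 had values and took 4.57% to 5.85% of all values in resistant lines, against 5.24% to 8.94% in susceptible lines. S205, at 8.94%, and SP9, at 8.07%, stood above the other 10 lines, and they also had the lowest sums of dividing-cell markers (137 and 139 CPM, against 160 to 332 CPM elsewhere) and the highest sums of vascular markers (203 and 158 CPM, against 53.5 to 107 CPM). Of the floral markers 1 of 4 had values (0.904 to 3.31 CPM), and of the senescence markers 3 of 6, with no contig analysed for SAG12, SAG13 and ORE1. The sum of these senescence markers was also highest in S205 (72.0 CPM) and SP9 (58.8 CPM), against 36.9 to 57.4 CPM elsewhere. S205 and SP9 recur among the high values of several members below. The part of the marker shift in those values was not tested, and in whole leaves fewer cells of a type and less RNA per cell cannot be told apart.

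Per length, the output gene PR2 was the most abundant member and the transporter EDS5 the least. PR2 averaged 85.6 CPM per kb of its longest contig over the 12 lines, followed by PAD4 at 28.7, SAG101 at 20.6, PR1 at 17.8, EDS1B at 14.9, NPR1 at 10.4, ICS1 at 4.72 and EDS5 at 0.546 CPM per kb. The output genes also varied most between lines. The coefficient of variation of the locus sum over the 12 lines was 64.1% for PR1, higher than for 97.0% of all tested loci, and 47.3% for PR2. It was 43.2% for EDS5, whose sums lay near 1 CPM, and 32.3% for PAD4. ICS1 (18.1%), SAG101 (16.6%), EDS1B (12.2%) and NPR1 (11.8%) lay near or below the median of 16.7% over all tested loci.

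**Figure D1:**
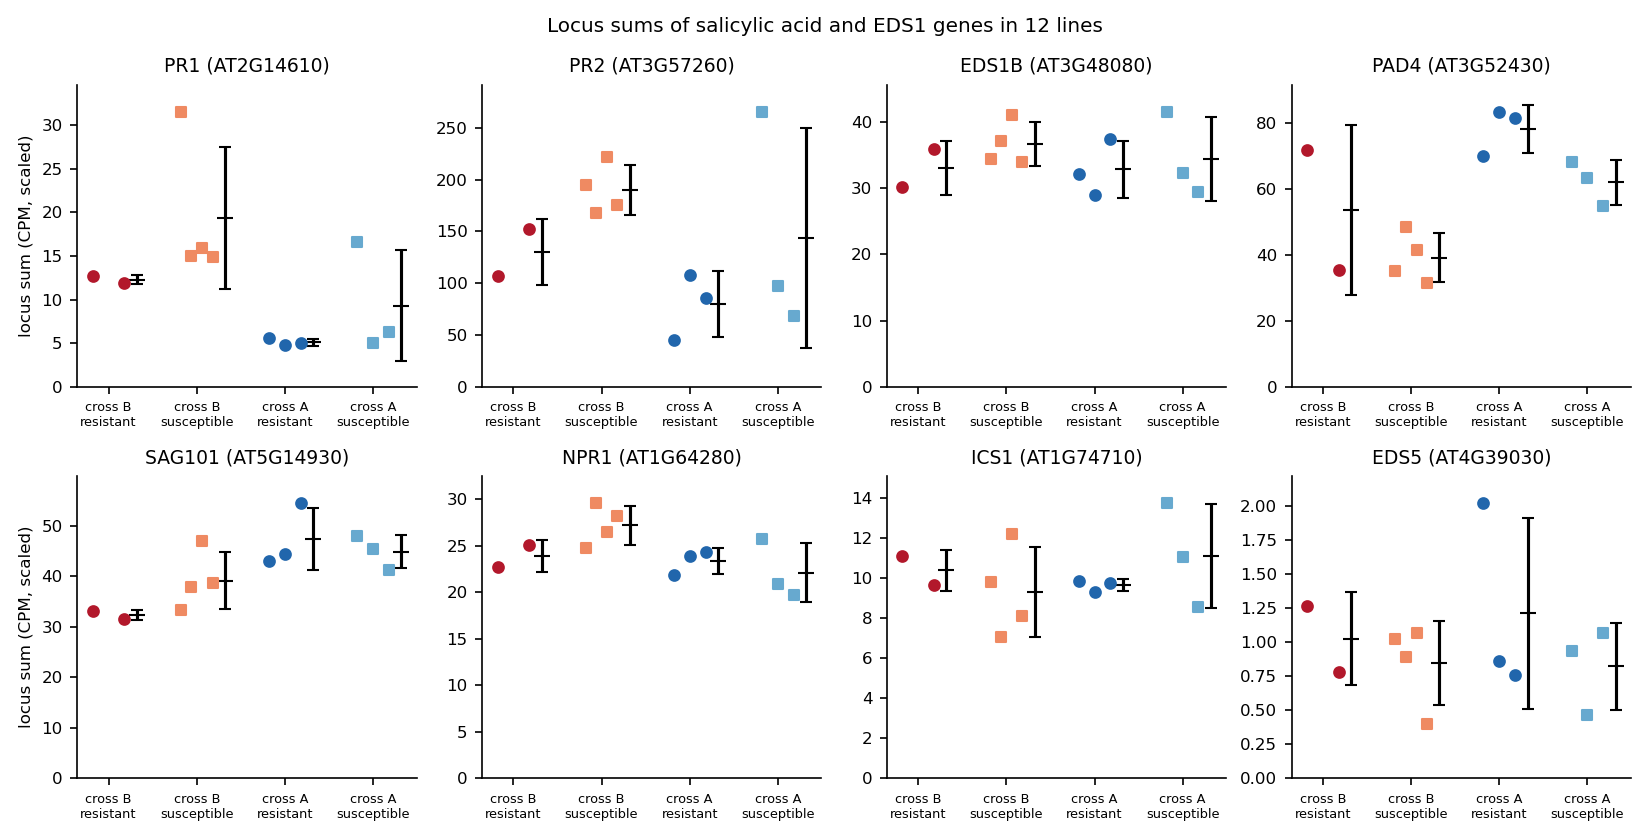
Locus sums in CPM of the 8 genes in each of the 12 lines, by cross and phenotype (circles resistant, squares susceptible, 1 point per library, black bars mean and SD). PR1 was lowest in cross A apart from S205, PAD4 was lowest in cross B apart from RP6, and EDS1B, NPR1 and ICS1 spread little between the groups.

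Cross B was compared with cross A with the phenotype as a covariate. No member locus sum passed the limma test, although DESeq2 called PR1 as higher and PAD4 as lower in cross B. Of the 8 locus sums, 0 were called at an adjusted p under 0.05 in limma, where 1.25% of 16051 loci were called. At an unadjusted p under 0.05, 4 of the 8 were on that side (PR1, PR2, PAD4 and SAG101), as were 13.6% of all loci. By edgeR, which called 0.972% of loci, 0 members were called, and by DESeq2, which called 4.81%, 2 were (PR1 and PAD4). For no member did the locus sums of the crosses separate without overlap, where 1.07% of all loci had every cross B line above cross A and 1.05% every cross B line below. Beside these values, the dividing-cell markers had negative differences between the crosses in 6 of 6 tested loci (median -0.16) and the guard-cell markers in 2 of 2 (median -0.28), and positive ones were found for the vascular markers in 3 of 3 (median 0.10) and the mesophyll markers in 5 of 6 (median 0.04). The senescence markers had positive differences in 2 of 3 (median 0.23). None of the markers was called, and their part in the differences between the crosses was not tested.

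PR1 encodes a small secreted protein that is the standard marker of salicylic acid signalling. Its locus sum was 12.6 and 11.9 CPM in the resistant lines RP6 and RP8 of cross B and 31.5, 14.9, 15.9 and 14.9 CPM in SP3, SP7, SP9 and SRP1, its susceptible lines. In cross A it was 5.56, 4.74 and 4.99 CPM in the resistant lines R202, R206 and R221, and it was 16.6, 4.97 and 6.30 CPM in S205, S207 and S242, the susceptible ones. Every cross B line thus lay above 5 of the 6 cross A lines, and the overlap came from S205. Cross B averaged 17.0 ± 7.27 CPM and cross A 7.19 ± 4.63 CPM (SD, n = 6 each), a log2 difference of 1.15 with a standard error of 0.27 (limma adjusted p = 0.0701). The exact permutation of the crosses within each phenotype gave a two-sided p of 0.0114, where 350 arrangements allow no less than 0.00286. This p was not adjusted over the member loci. Without S205 the difference was 1.42 and was called (limma adjusted p = 0.00989), as it was without S205 and SP9 together (1.44, limma adjusted p = 0.0149). Leaving out S205, the line that made the overlap, had to raise the difference, so these calls are no support by themselves. No other single omission led to a call. Over all 12 libraries DESeq2 gave 1.13 (adjusted p = 0.00668) and edgeR 1.13 (adjusted p = 0.110).

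PR1 had 1 contig from each assembly, of 680 bases (R) and 643 bases (S), and their balance differed widely between lines. The R contig had 7.18 CPM at the lowest, 11.2 at the median and 23.6 at the highest in cross B, against 3.04, 4.21 and 5.09 CPM in cross A, with no overlap. It rose by 1.38 on the log2 scale (SE 0.25, limma adjusted p = 0.0205) and had the same direction in 6 of 6 cross B lines. The call was lost without S207 (1.41, limma adjusted p = 0.0530) and without RP6 (1.34, limma adjusted p = 0.0512). In those runs 246 of 31016 and 432 of 31143 contigs were called in all, against 682 of 31337 with all libraries. The S contig had 1.02, 3.78 and 8.71 CPM in cross B and 0.457, 1.23 and 13.5 CPM in cross A (lowest, median and highest), and the log2 difference of 0.89 was not called (limma adjusted p = 0.507). The ratio of the R to the S contig was 11.4 in RP6, 10.7 in R202 and 9.89 in S207, and 0.82 in SP9 and 0.22 in S205. S205 and SP9 were the lines in which the S contig of PR1 exceeded its R contig. For NPR1 the balance of the same lines turned the other way, with a ratio of R to S of 1.14 in S205 and 1.45 in SP9, against 0.52 to 0.84 elsewhere. Contigs of 1 locus can share reads, and the sources used here do not say how reads fitting both assemblies were counted, so single contigs are less certain than sums.

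**Figure D2:**
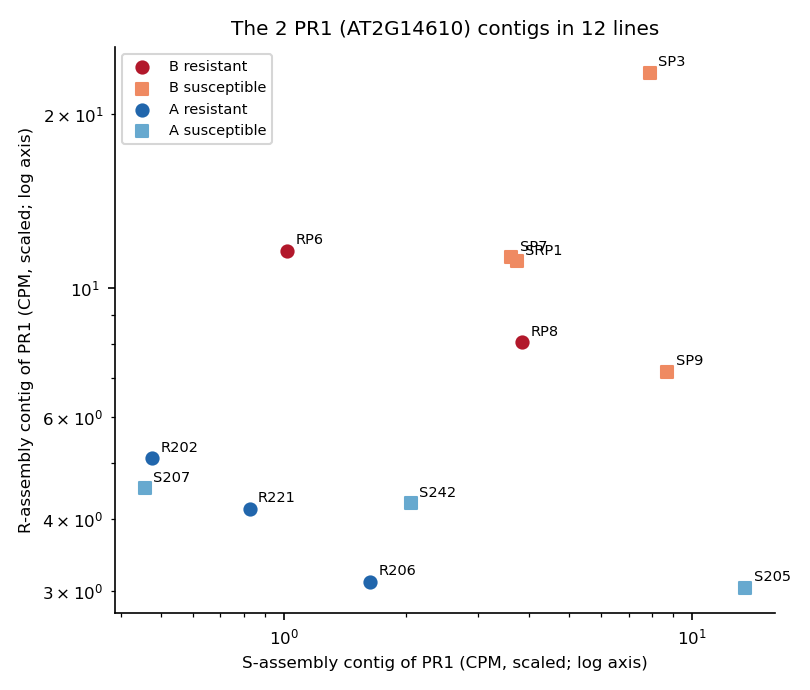
The R-assembly contig of PR1 against its S-assembly contig, in CPM on log axes, with 1 point per line coloured by cross and phenotype. On the vertical axis all 6 cross B lines lie above all 6 cross A lines, while on the horizontal axis S205 of cross A is the highest of the 12.

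PR2 is a beta-1,3-glucanase that attacks fungal cell walls. Its locus sum was 107 and 153 CPM in the resistant lines RP6 and RP8 of cross B and 195, 168, 222 and 175 CPM in SP3, SP7, SP9 and SRP1. In cross A it was 45.2, 108.0 and 85.5 CPM in R202, R206 and R221 and 265, 97.0 and 68.2 CPM in S205, S207 and S242. S205 was the highest of the 12 lines and the other cross A lines reached at most 108.0 CPM, near the lowest cross B line. The log2 difference between the crosses was 0.70 with a standard error of 0.31 (limma adjusted p = 0.353) and, without S205, 1.002 (limma adjusted p = 0.0582). The 3 contigs of PR2 had log2 differences of 0.62, 0.74 and 0.93, and none was called over all 12 libraries. The S contigs S_TRINITY_DN14007_c0_g1_i1 and S_TRINITY_DN14007_c1_g1_i3 passed the limma test without R206 (0.88, adjusted p = 0.0399) and without S205 (1.197, adjusted p = 0.0375), in that order. Neither contig passed with any other single library left out. Over all contigs 1072 of 31086 were called without R206 and 486 of 31029 without S205, against 682 of 31337 with all libraries. Leaving out S205, the highest cross A line, had to raise the difference, so that call is no support by itself.

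PAD4 is a lipase-like protein that binds EDS1 and promotes salicylic acid accumulation. Its single contig, from the R assembly, had 71.8 and 35.5 CPM in RP6 and RP8 and 35.2, 48.4, 41.6 and 31.5 CPM in SP3, SP7, SP9 and SRP1. In cross A it had 70.0, 83.3 and 81.5 CPM in R202, R206 and R221 and 68.1, 63.2 and 54.7 CPM in S205, S207 and S242. All cross B lines except RP6 lay below all cross A lines. Cross B averaged 44.0 ± 14.9 CPM and cross A 70.1 ± 10.9 CPM (SD, n = 6 each), a log2 difference of -0.65 with a standard error of 0.16 (limma adjusted p = 0.0889 among locus sums). The exact two-sided permutation p was 0.00571, not adjusted over the member loci. Without RP6, the cross B line that overlapped cross A, the difference was -0.81 and was called (limma adjusted p = 0.0268). Leaving out that line had to enlarge the difference, so the call is no support by itself. No other single omission led to a call. Over all 12 libraries DESeq2 gave -0.62 (adjusted p = 0.0111).

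SAG101, the other lipase-like partner of EDS1, was spread over 10 contigs with values, and 4 short ones were at or near 0 in cross B. The locus sum was 31.6, 35.6 and 47.0 CPM in cross B and 41.4, 45.0 and 54.5 CPM in cross A (lowest, median and highest). The ranges overlapped through SP9, at 47.0 CPM. The log2 difference of -0.34 (SE 0.10) was not called (limma adjusted p = 0.156), neither edgeR nor DESeq2 called it, and the exact two-sided permutation p was 0.0143, not adjusted over the 8 loci. The 4 contigs, 660 to 1065 bases long, had reads in 6 of 6 cross A lines and almost none in cross B.

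The R contig R_TRINITY_DN12448_c1_g1_i2 had 0 reads in cross B and 1116 in cross A, at least 367-fold lower in mean CPM against a floor of 3 reads over the group, and S_TRINITY_DN13757_c3_g1_i2 had 0 reads and 817 reads, at least 270-fold lower. S_TRINITY_DN13757_c3_g1_i5 had 2 reads in cross B, both in RP8, and 1332 in cross A, a 759-fold lower mean with a 95% exact Poisson interval of 210 to 6266. S_TRINITY_DN13757_c4_g2_i1 had 2 reads in cross B, both in SP9, and 2713 in cross A, a 1192-fold lower mean (330 to 9844). These intervals and floors cover counting error only. In cross A the 4 contigs averaged 1.38, 1.02, 1.65 and 3.37 CPM in the order given. Within cross A their sum was 7.85 ± 2.11 CPM in resistant lines and 7.004 ± 1.62 CPM in susceptible lines (SD, n = 3 each).

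The 3 of these contigs that passed the filter fell in cross B, with differences of -1.88, -2.05 and -2.91 on the log2(CPM + 0.5) scale, which understates changes of such low values (limma adjusted p = 1.74e-05, 1.72e-05 and 3.39e-07). Together with the R contig of PR1, 4 of the 20 member contigs that passed the filter were called between the crosses, 1 higher in cross B and 3 lower, where 2.18% of 31337 contigs were called, 0.826% higher and 1.35% lower. The 3 SAG101 contigs could pass the filter only through cross A and so had to differ, and neither their p-values nor the count is support by itself. By edgeR 4 contigs were called (1.7% of all contigs) and by DESeq2 5, PAD4 being added (5.56%). Without overlap between the crosses, 1 of the 21 contigs lay above (1.08% of all contigs) and 4 lay below (1.33%). These 4 are the SAG101 contigs near 0 in cross B and so belong to 1 locus.

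The other 6 contigs of SAG101, of 1018 to 2018 bases, summed to 36.9 ± 5.67 CPM in cross B and 38.7 ± 4.86 CPM in cross A (SD, n = 6 each), a split made after the values were seen and given without a test. Among them, the R contig R_TRINITY_DN12877_c1_g2_i3 of 1458 bases had 1.22 to 2.18 CPM in cross B. In cross A it had 1.49 and 1.37 CPM in R202 and S205 and 4.11, 6.36, 4.47 and 2.90 CPM in R206, R221, S207 and S242. Its log2 difference of -0.69 was not called (limma adjusted p = 0.315). The 4 longest contigs, all from the S assembly, had log2 differences of -0.13 to 0.02 between the crosses.

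**Figure D3:**
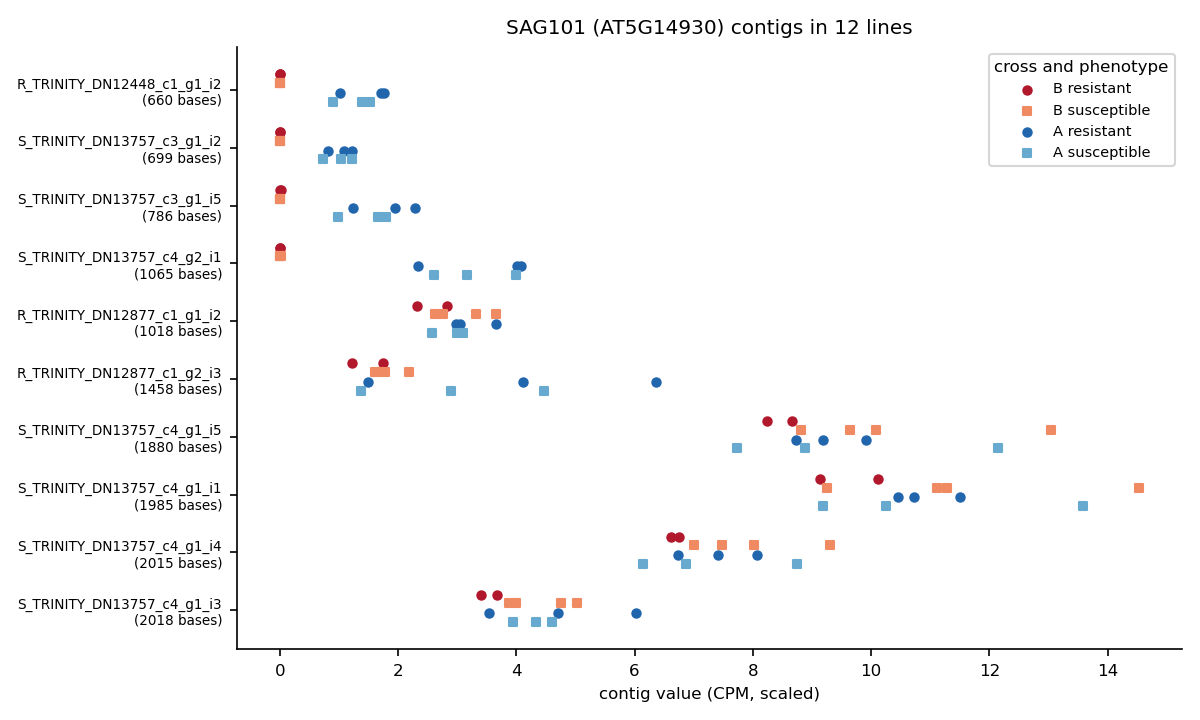
CPM of the 10 SAG101 contigs in the 12 lines, with cross B points drawn above cross A points in each row (circles resistant, squares susceptible). The upper 4 contigs are at or near 0 in cross B and at 0.734 to 4.09 CPM in cross A, while the other 6 overlap between the crosses.

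The remaining members were close between the crosses. EDS1B, the lipase-like hub that PAD4 and SAG101 bind, had 30.1, 35.2 and 41.1 CPM in cross B and 29.0, 32.2 and 41.5 CPM in cross A (lowest, median and highest), differing by 0.06 on the log2 scale (SE 0.10, limma adjusted p = 0.832). NPR1, the salicylic acid receptor and coactivator, had 22.6, 25.8 and 29.5 CPM in cross B and 19.7, 22.8 and 25.7 CPM in cross A, differing by 0.19 (SE 0.09, limma adjusted p = 0.375). The ranges overlapped for both genes. ICS1, the isochorismate synthase, had 7.06, 9.74 and 12.2 CPM in cross B and 8.53, 9.81 and 13.7 CPM in cross A, and EDS5, the isochorismate exporter, had 0.398, 0.956 and 1.27 CPM in cross B and 0.464, 0.895 and 2.02 CPM in cross A. Their log2 differences were -0.11 and -0.03 (limma adjusted p = 0.805 and 0.966). S205 was the highest and SP9 the next of the 12 lines for PR2, EDS1B and ICS1.

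**Figure D4:**
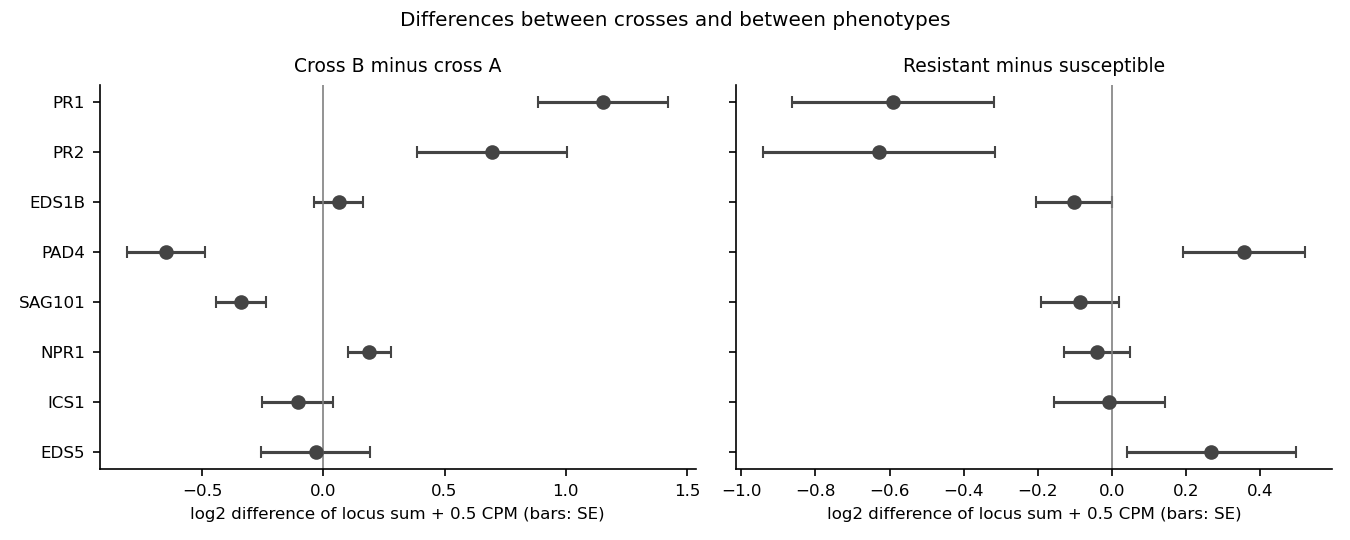
Fitted log2 differences of the locus sums (pseudocount 0.5 CPM) with standard errors, cross B minus cross A on the left and resistant minus susceptible on the right. Between the crosses PR1 stands at 1.15 and PAD4 at -0.65, and between the phenotypes PR1 and PR2 stand at -0.59 and -0.63 and PAD4 at 0.36.

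Resistant and susceptible lines were compared with the cross as a covariate, the contrast that the series was made for. The output genes PR1 and PR2 had lower means and PAD4 a higher mean in resistant lines, and none of these differences passed the test. PR1 averaged 7.97 ± 3.95 CPM in resistant lines (SD, n = 5) and 15.0 ± 8.67 CPM in susceptible lines (SD, n = 7), and PR2 averaged 99.7 ± 39.0 CPM and 170 ± 68.4 CPM in those groups. PAD4 averaged 68.4 ± 19.3 CPM in resistant lines and 49.0 ± 13.8 CPM in susceptible lines. The log2 differences were -0.59 (SE 0.27), -0.63 (SE 0.31) and 0.36 (SE 0.16), each with a limma adjusted p of 0.587. For PR1 and for PR2, both resistant lines of cross B lay below all 4 susceptible lines of that cross, whereas in cross A the phenotypes overlapped. For PAD4, all 3 resistant lines of cross A lay above all 3 susceptible lines, whereas in cross B RP6 lay above and RP8 among the susceptible lines. The share of all loci that separated like this within a cross is not given, and with so few lines such a separation is no support by itself. Beside these values, the mesophyll markers had negative differences in 6 of 6 tested loci (median -0.43), the vascular markers in 3 of 3 (median -0.30), the dividing-cell markers positive ones in 6 of 6 (median 0.48) and the guard-cell markers in 2 of 2 (median 0.34). The senescence markers had negative differences in 2 of 3 (median -0.20). None of the markers was called, and their part in the member values was not tested.

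Of the 8 member locus sums 0 were called between the phenotypes by limma, edgeR or DESeq2. In limma 0% of 16051 loci were called, with 8.22% at an unadjusted p under 0.05, and no member was among these. DESeq2 called 0.125% of all loci and edgeR 0%. The exact two-sided permutation of phenotypes within each cross gave an unadjusted p of 0.06 for PR1, 0.07 for PAD4 and 0.11 for PR2, where 300 arrangements allow no less than 0.00333. Without S205 the differences of PR1 and PR2 came to -0.35 each (limma adjusted p = 0.931 and 0.934). EDS1B, SAG101, NPR1 and ICS1 differed by -0.10 to -0.01, with standard errors of 0.09 to 0.15, and EDS5 by 0.27 (SE 0.23, limma adjusted p = 0.668).

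Within cross B the resistant minus susceptible difference was -0.56 for PR1, -0.56 for PR2 and 0.38 for PAD4. Within cross A it was -0.62, -0.69 and 0.34 for the same genes, and the PR1 and PR2 values there rested on S205: without that line they were -0.13 and -0.12. Without RP6 the PAD4 value within cross B was -0.12. No member was called within cross B, where 0.0249% of loci were called, or within cross A, where 0% were. The difference of the 2 effects was 0.07 for PR1, 0.13 for PR2 and 0.05 for PAD4, with standard errors of 0.57, 0.66 and 0.34, and 0 members and 0% of all loci were called. Without S205 the difference of the effects was -0.43 for PR1 and -0.44 for PR2 (limma adjusted p = 0.999 each), so with standard errors of this size the values near 0 do not show that the phenotypes differed alike in both crosses.

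At the contig level, with the cross as a covariate, 0 of 20 member contigs were called between the phenotypes by limma, edgeR or DESeq2, which called 0%, 0.00957% and 0.268% of 31337 contigs in that order. The S-assembly contigs of the output genes had the most negative differences. The S contig of PR1 averaged 1.56 ± 1.34 CPM in resistant lines (SD, n = 5) and 5.71 ± 4.55 CPM in susceptible lines (SD, n = 7), differing by -1.22 on the log2 scale (SE 0.58, limma adjusted p = 0.619), against -0.12 for its R contig. Without S205, where the S contig had 13.5 CPM, its difference was -0.73. For PR2 the S contigs had -0.68 and -0.95 and the R contig -0.52, the last -0.22 without S205. In the authors' deposited table of 277 contigs, which compares all resistant with all susceptible lines, 2 are members. They are the S contig of PR1 at a log2 fold change of -1.96 and the PR2 contig S_TRINITY_DN14007_c1_g1_i3 at -1.07. The authors' deposited table gives them p-values of 0.0121 and 0.0122 and an FDR of 1 each. Its label names no cross, so these values are not directly comparable with those of the covariate fit. For the S contig of PR1, limma without the covariate gave -1.38, and edgeR with it gave -1.89.

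Over the 12 lines the output genes varied together. The permutations over the 12 lines were not kept within the crosses, so their p-values also take in differences between the crosses. PR1 and PR2 had a Pearson r of 0.79 (permutation p = 0.00245, adjusted over 6 pairs 0.0147) and a Spearman rho of 0.79 (permutation p = 0.00301, adjusted 0.0181). Without the 2 lines farthest from the median of PR1, r was 0.86. Within cross B r was 0.53 (rho 0.83) and within cross A 0.76 (rho -0.09), 6 lines each, with exact permutation p of 0.263 and 0.144, so the relation did not pass within a cross. In cross A S205 was the highest line for both genes. PAD4 and PR1 had r = -0.69 (permutation p = 0.0156, adjusted 0.0467) and rho = -0.62 (permutation p = 0.0334, adjusted 0.0668). That relation came to -0.57 without the 2 lines farthest from the median of PAD4, and to -0.35 within cross B and -0.22 within cross A, and it did not pass in any of these. The other 4 pairs did not pass over the 12 lines: r was 0.60 for NPR1 and PR1, 0.57 for PAD4 and SAG101, 0.18 for ICS1 and EDS5 and 0.09 for ICS1 and PR1 (permutation p adjusted over 6 pairs 0.0809, 0.0894, 0.705 and 0.780).

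Outside the members, the loci whose log2 sums followed PR1 most closely over the 12 lines were AT1G24100, annotated as UDP-glucosyl transferase 74B1 (r = 0.92), AT3G09405, a pectin acetylesterase family protein (0.90), and AT1G70370, polygalacturonase 2 (0.90). For PR2 they were AT1G22750, an unknown protein (0.96), AT5G45440, a P-loop nucleoside triphosphate hydrolase (0.95), and AT4G11890, a protein kinase (0.95). AT4G11890 had 12.2 CPM in S205 and 0.631 to 5.28 CPM in the other lines. These were the 3 highest of all tested loci for each gene and carry no test.

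The wider pathway was described through 62 other loci in 9 lists, of which 39 had contigs with values and 38 passed the filter. Between the crosses 21 had positive and 17 negative differences, and 0 were called in either direction by limma. Between resistant and susceptible lines 14 were positive and 24 negative, and 0 were called. The median over all loci was 0.01 between the crosses and -0.01 between the phenotypes.

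Upstream of the members, the salicylic acid synthesis list had 6 tested loci, with a median of 0.05 between the crosses and -0.13 between the phenotypes. PBS3, which conjugates isochorismate to glutamate, differed by 0.23 between the crosses and by -0.31 between the phenotypes (limma adjusted p = 0.599 and 0.595). ICS2, the minor isochorismate synthase, had differences of -0.45 and 0.49 (limma adjusted p = 0.357 and 0.587). PAL4, a phenylalanine ammonia-lyase of the alternative route, had 0.34 between the crosses (limma adjusted p = 0.499), and EPS1, PAL1 and PAL2 lay between -0.22 and 0.13 in both comparisons. Between the phenotypes PAL1, PAL2 and PAL4 had positive differences within cross B (0.21, 0.28 and 0.29) and negative ones within cross A (-0.52, -0.41 and -0.39), and no difference of these effects was called. Of the genes that inactivate salicylic acid, the glucosyltransferase UGT74F1 had 0.73 between the phenotypes and -0.33 between the crosses (limma adjusted p = 0.587 and 0.652), its relative UGT74F2 0.07 and -0.01, and the hydroxylase DMR6 -0.16 and -0.15. The calmodulin-binding repressor CAMTA3 was the only one of 3 listed regulators of ICS1 transcription with values, with 0.01 between the crosses and -0.03 between the phenotypes.

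Around NPR1, the 10 tested NPR, NIMIN and TGA loci had a median of 0.01 between the crosses, and TGA7 and NPR4 had the lowest differences, -0.16 and -0.14. Between the phenotypes their median was -0.06, with TGA7 at -0.31 and NIMIN2 at -0.26 (limma adjusted p = 0.616 and 0.639). All 4 tested WRKY factors of the salicylic acid response had positive differences between the crosses, with a median of 0.33, and none was called. WRKY54 had 11.3, 15.5 and 19.1 CPM in cross B and 7.15, 9.56 and 14.4 CPM in cross A (lowest, median and highest), a log2 difference of 0.62 (limma adjusted p = 0.129) with overlapping ranges. WRKY18, WRKY70 and WRKY46 had 0.42, 0.25 and 0.03 between the crosses. Between the phenotypes all 4 were negative, WRKY70 the most at -0.43 (limma adjusted p = 0.694).

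Among the genes listed around EDS1, the helper receptor NRG1.2 (AT5G66910) had an on and off pattern within cross A. It had 5.59 and 7.87 CPM in RP6 and RP8 and 6.78, 8.56, 10.04 and 6.61 CPM in SP3, SP7, SP9 and SRP1. In cross A it had 11.1 CPM in R206 and 5.18 CPM in S207, against 0.0350 and 0.0138 CPM in R202 and R221 and 0 in S205 and S242. All cross B lines and 2 of the 6 cross A lines thus had the transcript well above the level of 3 reads, and the log2 difference of 2.64 was not called (limma adjusted p = 0.164). Its neighbour in the family, NRG1.1, had -0.69 between the crosses and -0.53 between the phenotypes (limma adjusted p = 0.308 and 0.589). ADR1-L1, ADR1-L2 and NDR1 lay between -0.19 and 0.31 in both comparisons.

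Of the systemic resistance genes, DIR1, a lipid transfer protein, had 0.98 between the phenotypes and -0.17 between the crosses (limma adjusted p = 0.587 and 0.899), with 8.64 to 13.6 CPM in resistant lines and 1.67 to 17.5 CPM in susceptible lines. ALD1, which makes a precursor of pipecolic acid, had 0.28 and -0.33, and SARD4, which acts after it, 0.11 and 0.15, in the same order of comparisons. Of the other output genes, BG3, a glucanase of the PR2 family, had 1.89, 16.7 and 30.4 CPM in cross B and 0.932, 1.48 and 7.41 CPM in cross A, a log2 difference of 2.27 (limma adjusted p = 0.129). RP6, at 1.89 CPM, was the cross B line that overlapped cross A. BG1, of the same family, had 42.2, 104 and 244 CPM in cross B and 20.0, 38.4 and 188 CPM in cross A, with its highest values in SP9 and S205, and a difference of 1.04 (limma adjusted p = 0.379). Between the phenotypes BG1 had -0.69, PNP-A -0.28, WAK1 -0.25 and BG3 -0.13, and none was called. For BG3 that value averaged opposite signs, -1.66 within cross B (8.69 ± 9.62 CPM in resistant lines, n = 2, and 20.1 ± 7.51 CPM in susceptible lines, n = 4, SD) and 1.24 within cross A (4.62 ± 3.23 CPM in resistant lines and 1.299 ± 0.354 CPM in susceptible lines, SD, n = 3 each). The difference of these effects, -2.90 (SE 1.03), was not called (limma unadjusted p = 0.0174, adjusted p = 0.999), and single lines of cross B moved it: without RP6 the value within cross B was -0.29 and the difference -1.53 (unadjusted p = 0.125), and without RP8 they were -3.04 and -4.28 (unadjusted p = 0.000973, adjusted p = 0.974). The jasmonate output genes VSP1 and LOX2, often opposed to salicylic acid outputs, had 0.21 and -0.49 between the crosses and -0.52 and 0.01 between the phenotypes, and ranged from 231 to 2026 CPM and from 1043 to 6609 CPM over the lines, in that order.

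**Figure D5:**
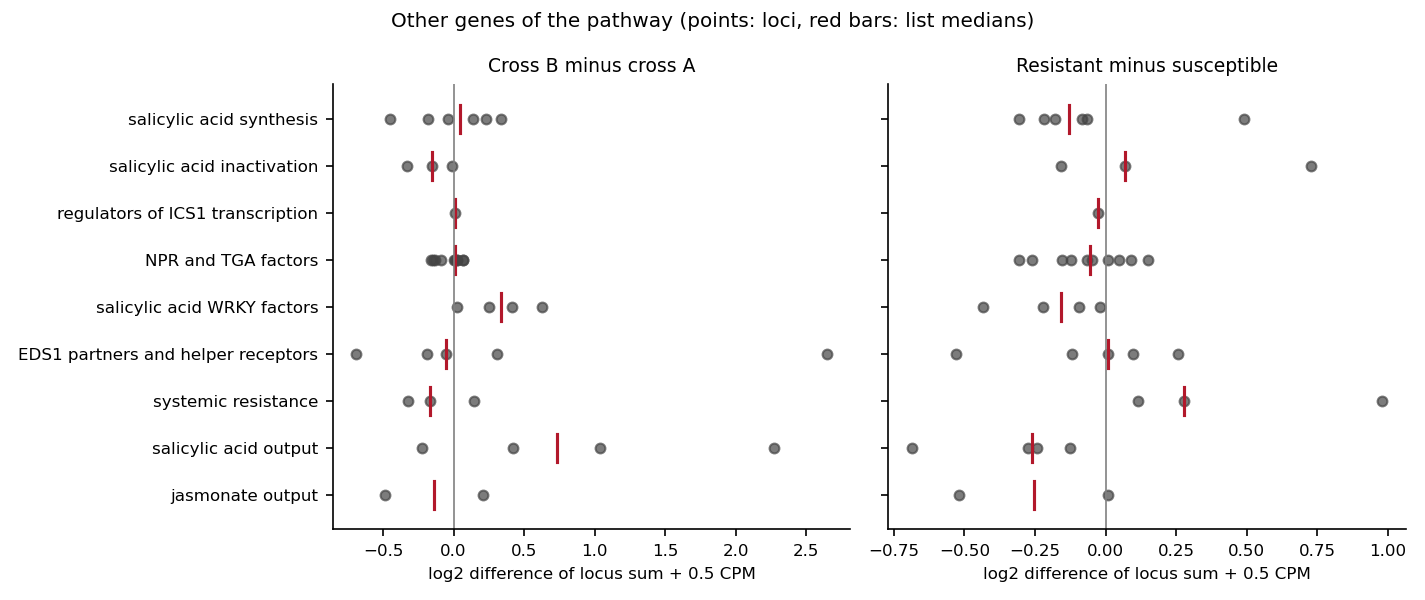
Fitted log2 differences of the 38 other pathway loci by list, cross B minus cross A on the left and resistant minus susceptible on the right (points are loci, red bars list medians). The WRKY list lies to the right of 0 between the crosses with a median of 0.33, and the points at 2.64 and 2.27 are NRG1.2 and BG3, neither of them called.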

How the data were processed

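Leaf RNA of 12 untreated lines was sequenced from stranded poly(A) libraries. The submitters' processing notes name SAMtools 1.3.1, Bowtie2, R 3.3, edgeR and TAIR10, without their roles. The authors deposited a normalized signal per contig and library, which is CPM on a scaled library size: columns sum to 915639 to 1180044. Divided by the step of its column, 100% of values were whole within 0.1, and these recovered reads total 100976475 to 145936928 per library. The authors also deposited a comparison of phenotypes, with log2 fold changes, p-values and FDR.

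Contigs were summed by Arabidopsis locus. The design assumed CPM, and its test still applied, since only that scaling differs. limma 3.58.1 (R 4.3.3) was run on log2(CPM + 0.5) with the trend option and p-values adjusted by Benjamini-Hochberg over all features that reached 1 CPM in 5 or more libraries. Phenotypes had cross and crosses had phenotype as covariate, and comparisons within a cross used 1 mean per group. Fold changes on this scale understate those of low features. The alternatives were edgeR 4.0.16 and DESeq2 1.42.0 on recovered reads, a filter of 1 CPM in 2 libraries or none, pseudocounts of 0.1 and 2, median ratio scaling, robust limma, no covariate, R or S contigs alone, each library left out, and exact permutation per locus sum. Leaving out S205 and SP9 together was added after seeing the data.

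Correlations used log2(CPM + 0.5), two-sided permutation tests with 100000 resamples (exact within a cross) and adjustment over 6 pairs; pairs with PR5 or AT3G48090 were not computed. Named were all members, up to 4 loci per list and comparison by smallest p, and the 3 loci most like PR1 and PR2. Members and lists were chosen with earlier results of these data known. The fits were tested on simulated data.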

Additional observations from a re-analysis of the deposited data

Results flagged for a closer look

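Among 125 groups of lines and member values, 15 had a line far from the others of its group by Dixon's criterion. Chance would flag about 1 in 20 groups (6.25 here) if the values were normally distributed, which CPM values need not be. The groups overlap, so they are not independent. No share over all contigs is given, so the count is no result about these genes. No explanation was tested.

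SP3 stood above the other lines for PR1. Its locus sum of 31.5 CPM was far from the other cross B lines and from the other susceptible lines of cross B, and its R contig, at 23.6 CPM, was far from the other susceptible lines and the other cross B lines. S205 stood above the rest of cross A in the PR1 sum (16.6 CPM), the PR1 S contig (13.5 CPM), the PR2 sum (265 CPM), the PR2 R contig (194.5 CPM) and the PR2 contig S_TRINITY_DN14007_c1_g1_i3 (52.8 CPM). RP8 lay below the other resistant lines for PAD4 (35.5 CPM) and above them for the S contig of NPR1 (16.5 CPM). SP9 lay above the other susceptible lines of cross B for the R contig of NPR1 (15.6 CPM).

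For SAG101 the flagged values are single lines of cross B with 2 reads where the others had 0: RP8 with 0.0131 CPM for S_TRINITY_DN13757_c3_g1_i5, and SP9 with 0.0170 CPM for S_TRINITY_DN13757_c4_g2_i1, SP9 being flagged among all of cross B and among its susceptible lines.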

How the results depend on the processing

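Between the phenotypes, within each cross and for the difference between crosses, 0 members were called under every alternative run. Between the crosses, member locus sums called numbered 0 in limma over all libraries, 2 by DESeq2 (PR1 and PAD4), 1 with R contigs only (PR1), 1 without S205 and SP9 (PR1), and 0 to 1 with each library left out (PR1 without S205, PAD4 without RP6). Over all loci the calls numbered 200 of 16051 in limma, 772 by DESeq2 and 134 of 7879 with R contigs only. They numbered 167 of 15949 without S205 and SP9, and with each library left out 54 (without SP3) to 270 (without R206). S205 for PR1 and RP6 for PAD4 were the lines that overlapped the other cross, so calls without them are no support by themselves. Member contigs called numbered 4 in limma and by edgeR, 5 by DESeq2 (PAD4 added), 5 with no filter and 5 with the filter of 1 CPM in 2 libraries (S_TRINITY_DN13757_c3_g1_i2 of SAG101 added in both), and 1 to 5 with each library left out: 1 without S207, and 2 without R202, R221 or S242, where fewer low SAG101 contigs passed the filter in the smaller set of libraries. Over all contigs the calls numbered 682 of 31337 in limma, 532 by edgeR and 1742 by DESeq2. They numbered 818 of 33277 with no filter and 807 of 33096 with the filter of 1 CPM in 2 libraries. With each library left out they ranged from 246 (without S207) to 1072 (without R206). Wherever a filter was used, the SAG101 contigs called could pass it only through cross A, so how often they were called is no support by itself. Of the correlations, 2 passed over all lines by Pearson and 1 by Spearman (PR1 and PR2). By either measure 0 passed within cross A, 0 within cross B and 1 without the 2 farthest lines.

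The signs of some differences turned, none of them called. Between the phenotypes these were SAG101 with R contigs only (0.0325), NPR1 with S contigs only (0.0675), without S205 and SP9 (0.00112) and with each library left out (-0.0919 to 0.0175), ICS1 without covariate (0.0111), without S205 and SP9 (0.150) and with each library left out (-0.0828 to 0.0875), and the R contig of PR1 with each library left out (-0.215 to 0.0297). Between the crosses EDS5 ranged from -0.152 to 0.0651 with each library left out. The difference of the phenotype effect between the crosses was -0.494 for PR1 and -0.362 for PR2 without S205 and SP9, and with each library left out it ranged from -0.429 to 0.392 for PR1, from -0.440 to 0.535 for PR2 and from -0.458 to 0.549 for PAD4, whose value within cross B ranged from -0.123 to 0.884. Pearson r, over all lines 0.57, 0.60 and 0.18 for the pairs named next, turned to -0.116 for PAD4 and SAG101 and to -0.0402 for NPR1 and PR1 within cross B, and to -0.218 for ICS1 and EDS5 within cross A. Spearman rho of PR1 and PR2, which passed over all lines at 0.79, was -0.09 within cross A. The cause was not tested.

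Limits: each line is 1 library, and a cross holds 6. No paired analysis was possible because the lines of a group share no number or label with those of another. Depth allowed 3 reads to be seen at 0.0196 to 0.0299 CPM, so the low SAG101 contigs in cross B were below that limit in each line, whereas EDS5, near 1 CPM, was above it.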
